A study of Homo sapiens with 3 samples.

Results

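The genes described here are 48 genes of protein folding in the endoplasmic reticulum (ER) and of the unfolded protein response (UPR), listed by name. Their probes were found on the arrays by the RefSeq accession printed with each probe, which gave 59 probes of 46 genes, out of 31104 probes of 22439 named genes. TXNDC11 and ERO1A were matched by no probe and were not analysed here. For the 11 genes with several probes, the brightest over the 3 arrays gave the value. TK-10, a human renal cell carcinoma line, was grown as 3 cultures for 48 h, and the RNA of each was read on 1 single-colour Agilent array. The medium of all 3 held 10% serum, zinc sulfate at 16.7 μM, and troglitazone and nicotinamide at 10 μM and 10 mM. The vehicle culture received 0.1% DMSO, and the treated cultures received cordyceps at 750 μg/ml or sunitinib, an inhibitor of receptor tyrosine kinases, at 10 μM. The labels name cordyceps, whereas the study's methods name cordycepin, an adenosine analogue of the Cordyceps fungus, at a lower dose, and the files do not settle which was used. The array experiment was made to find genes that respond to the compound, and the methods do not describe the sunitinib array.

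Proteins bound for secretion or for membranes enter the ER through the SEC61 channel, lose their signal peptide and fold with the help of chaperones, disulfide isomerases and sugar-binding lectins. When folding falls behind demand, the sensors IRE1α, ATF6 and PERK start the UPR, in which spliced XBP1 and cleaved ATF6 enter the nucleus and raise the transcription of chaperones and of ER-associated degradation (ERAD) genes, while PERK slows translation and favours ATF4. BiP, the product of HSPA5, binds unfolded chains and is the usual marker of this response. Renal tubular cells make many glycosylated membrane transporters, which pass through this machinery.

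ATF6 and XBP1 act through short elements in the promoters of these genes, so the promoters were searched for these elements. The window was 250 bases before to 50 bases after each start site in RefSeq (GRCh38.p14), and it was available for 43 of the 48 genes. The ER stress element (ERSE) was searched on both strands as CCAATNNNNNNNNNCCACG, and it was found in 25 of 27305 genes with a window, or 0.0916%, and in 9 of the 43 genes, or 20.9%. ERSE-II, searched as ATTGGNCCACG on both strands, was found in 19 genes, or 0.0696%, and in 3 of the 43. The shorter core TGACGTG was found in 654 genes, or 2.4%, and in 7 of the 43, and it overlapped an ERSE-II in HYOU1. Of the 25 genes with an ERSE, 36% were thus on the list. The ERSE is known from promoters of this kind of gene, so its share describes the list and is no result. The matches are shown because HSPA5, HSP90B1 and XBP1, which were more than 2-fold below vehicle on the sunitinib array, each hold at least 1. Capitals mark the fixed bases of each element, which is written on the strand on which it reads.
HSPA5, ERSE, chr9:125241391-125241409: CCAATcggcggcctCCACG
HYOU1, ERSE-II, chr11:119057380-119057390: ATTGGaCCACG
HYOU1, ERSE-II, chr11:119057274-119057284: ATTGGaCCACG
SDF2L1, ERSE-II, chr22:21642114-21642124: ATTGGtCCACG
HSP90B1, ERSE, chr12:103930216-103930234: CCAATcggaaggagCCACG
HSP90B1, ERSE, chr12:103930321-103930339: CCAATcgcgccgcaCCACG
CALR, ERSE, chr19:12938384-12938402: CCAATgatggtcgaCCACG
CANX, ERSE, chr5:179698778-179698796: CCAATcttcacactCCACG
PDIA6, ERSE, chr2:10812853-10812871: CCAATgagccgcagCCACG
ERO1B, ERSE, chr1:236282183-236282201: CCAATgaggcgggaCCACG
CRELD2, ERSE, chr22:49918554-49918572: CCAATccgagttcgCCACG
HERPUD1, ERSE-II, chr16:56932025-56932035: ATTGGgCCACG
XBP1, ERSE, chr22:28800603-28800621: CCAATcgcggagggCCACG
SERP1, ERSE, chr3:150546710-150546728: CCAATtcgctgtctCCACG

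The 250 bases before the start sites of HSPA5, HSP90B1 and XBP1, the 3 genes with an ERSE that were lowest on the sunitinib array relative to vehicle, are given in full to show where the element lies. In HSPA5 (chr9:125241344-125241593, minus strand) the element covered bases −66 to −48 from the start. In XBP1 (chr22:28800570-28800819, minus strand) it covered −52 to −34. In HSP90B1 (chr12:103930160-103930409, plus strand) there were 2 elements, at −194 to −176 and, reading on the other strand, at −89 to −71. Capitals mark the whole element, and each sequence reads 5′ to 3′ along the gene.
HSPA5: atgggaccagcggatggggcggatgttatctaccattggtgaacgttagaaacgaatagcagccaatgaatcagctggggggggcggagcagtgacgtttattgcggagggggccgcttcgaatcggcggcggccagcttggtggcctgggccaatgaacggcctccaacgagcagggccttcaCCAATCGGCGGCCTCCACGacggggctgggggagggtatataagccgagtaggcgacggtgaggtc
XBP1: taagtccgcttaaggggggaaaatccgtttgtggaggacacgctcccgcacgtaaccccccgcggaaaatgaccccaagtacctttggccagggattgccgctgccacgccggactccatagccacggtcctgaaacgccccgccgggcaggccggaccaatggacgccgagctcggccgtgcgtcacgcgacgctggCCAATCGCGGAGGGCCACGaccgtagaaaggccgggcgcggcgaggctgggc
HSP90B1: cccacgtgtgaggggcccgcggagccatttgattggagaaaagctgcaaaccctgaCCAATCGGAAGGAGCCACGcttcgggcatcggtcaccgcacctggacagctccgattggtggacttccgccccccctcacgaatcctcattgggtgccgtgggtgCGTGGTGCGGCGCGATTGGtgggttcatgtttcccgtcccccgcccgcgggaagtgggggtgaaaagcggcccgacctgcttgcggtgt

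All signals are levels relative to the array they came from. The deposited intensity at the 75th percentile of probes was 165 on the vehicle array, 138 on the cordyceps array and 78.2 on the sunitinib array, and a level is given below as log2 of a probe's signal over this percentile. The share of the 58201 probes that passed the software's background call (well above background) lay between 37.8% and 45.5%. Of 11 renal epithelial and renal carcinoma markers with a probe, 9 were well above background on every array, among them PAX8, LHX1 and KRT18, and CA9 and CUBN were not. Markers of other cells were above background for 1 or 2 of 4 leukocyte, 1 or 2 of 4 endothelial and 3 of 4 fibroblast genes. Of the last, COL1A1 had deposited intensities, not scaled between arrays, of 5308, 1069 and 385 on the vehicle, cordyceps and sunitinib arrays. DCN had 707, 169 and 31.2, whereas PDGFRB had 706, 520 and 532. The part of such changes in the ratios below was not tested. The cordyceps array had a bright area of 567 spots and the sunitinib array one of 40, and among these genes only the brighter probe of CREB3L2 lay in one. All 3 arrays came from 1 slide and 1 scan.

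With 1 array per condition there was no replicate spread, so no test across arrays was possible and no p-value is given. Each ratio describes 2 cultures, and how precise it is depends on the small number of arrays. A pair of yardsticks is used, a change of more than 2-fold (1 on the log2 scale), and a change beyond 1.96 times the combined technical error that the scanner software assigns to the 2 spots, called the technical limit. For these genes the technical limit had a median of 0.40 on the log2 scale in either comparison. It covers the error that the software assigns to spots, and no difference between cultures. It was near 0.40 for nearly all of these genes, so it acts almost as a fixed cut. The probe of XBP1 was printed 10 times on each array, and the SD of its log2 signal over the 10 spots was 0.03 on the vehicle array, 0.03 on the cordyceps array and 0.04 on the sunitinib array. Each array read the RNA of a whole culture, so fewer cells expressing a gene and less of its RNA per cell cannot be told apart.

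**Figure D1:**
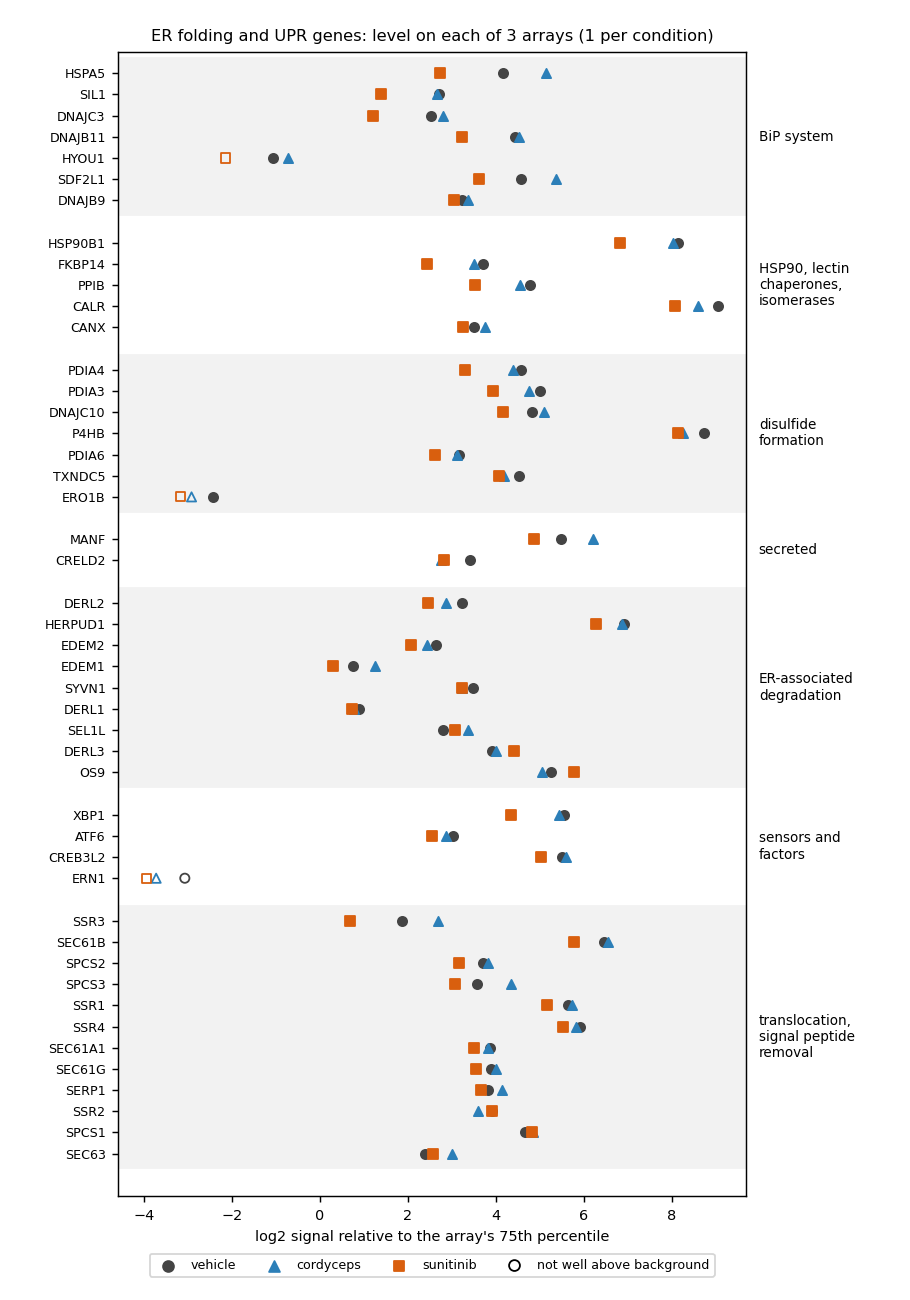
Level of the 46 genes on each array, as log2 of the signal relative to the array's 75th percentile, with genes grouped by role. Circles are vehicle, triangles cordyceps and squares sunitinib, and open symbols were not well above background. The square is the lowest symbol for 35 of the 43 genes measured on all 3 arrays. Symbols of different genes come from different probes and are not compared.

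Relative to vehicle, 5 of 7 genes of the BiP system and 3 of 5 of the group of GRP94, lectin chaperones and prolyl isomerases were more than 2-fold lower on the sunitinib array, against 0 of 9 ERAD genes and 1 of 12 translocation genes. On the cordyceps array the list was centred where all genes were, with HSPA5, the gene of BiP, and a few others above vehicle. With sunitinib, 12 of the 45 compared genes fell short of vehicle by more than 2-fold, and 0 exceeded it by that much. Among all 14894 genes compared, 6.49% were more than 2-fold lower and 6.41% more than 2-fold higher. By the technical limit, 30 of the 45 were lower and 2 higher, beside 20.3% and 20.7% of all genes. The median log2 ratio of the 45 genes was −0.55, with quartiles at −1.02 and −0.25, and the median of all genes was 0.00. With cordyceps, 0 of 45 lay above and 0 below vehicle by more than 2-fold, beside 2.93% above and 2.74% below among 14773 genes. By the technical limit 8 were higher (17.8%, beside 13.8% of all genes) and 3 lower (6.67%, beside 12.5%). The median was 0.00 in the list and 0.00 over all genes. Ratios with cordyceps inside the technical limit are given as values only, since a scaling can turn their sign, as for XBP1 at −0.13, which was 0.10 with median scaling. Of the 11 ratios past the limit, those of CALR and P4HB fell inside it with median scaling (−0.22 and −0.25), and those of EDEM1, SEL1L and SEC63 without scaling (0.25, 0.30 and 0.36). Other settings also took EDEM1 (0.32 with normexp background correction) and SEC63 (−0.01 with the mean of its probes) inside the limit. The counts of the 45 genes include ERO1B, which had no ratio and entered the medians at 0. The 2 comparisons share the vehicle array, so a low or high vehicle spot moves both ratios of a gene the same way.

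**Figure D2:**
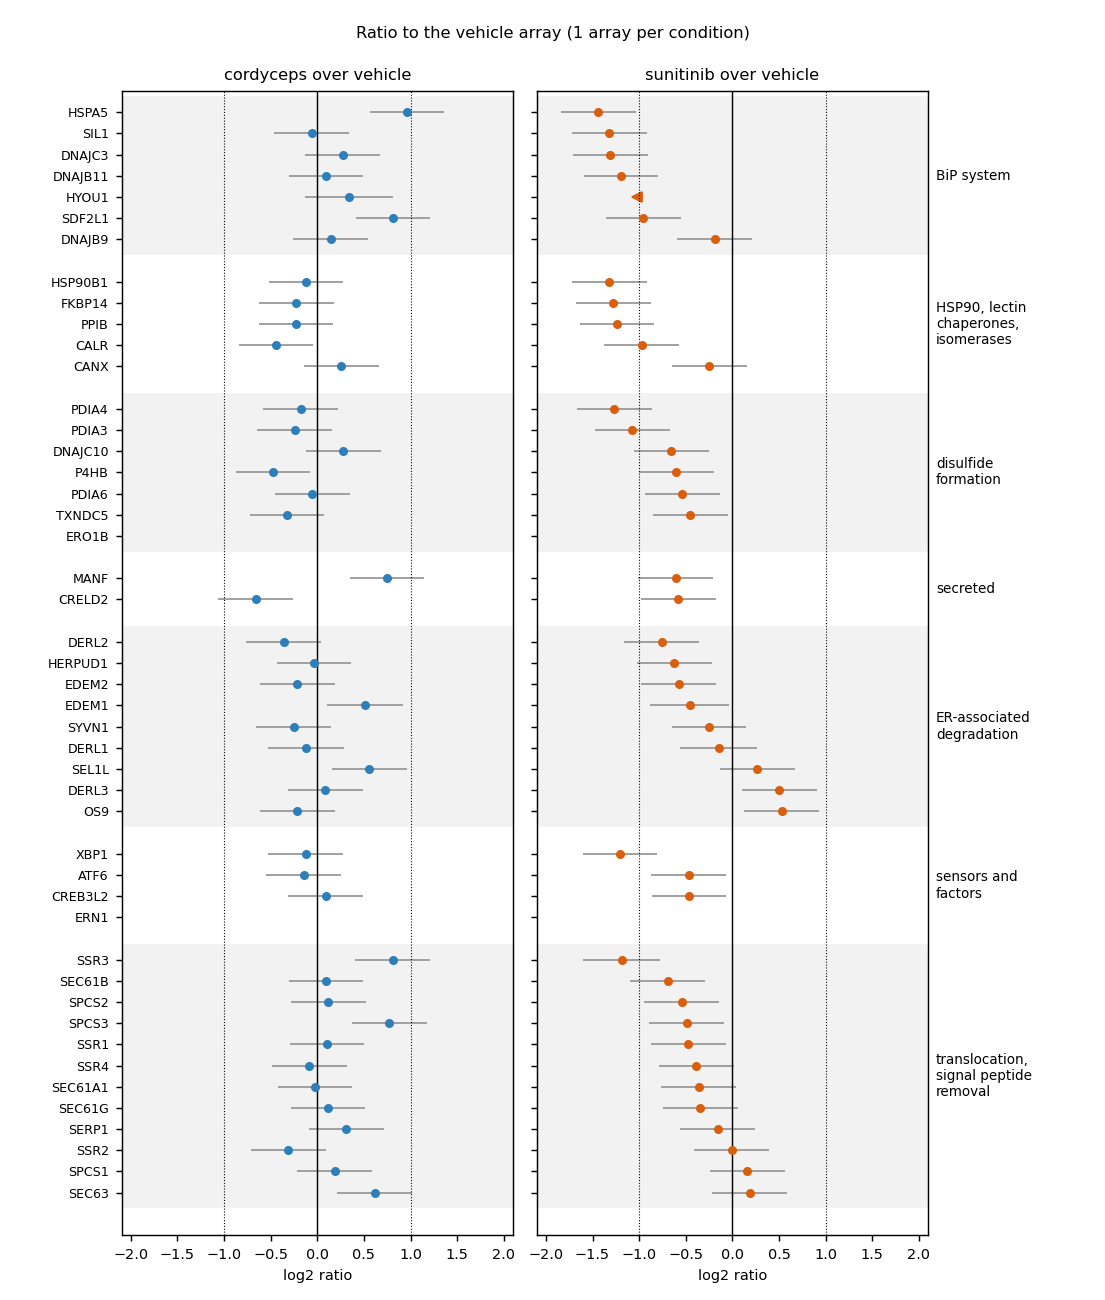
Log2 ratio of each gene to the vehicle array, for cordyceps (left) and sunitinib (right). Bars are plus and minus the technical limit, dotted lines mark 2-fold, and the arrowhead of HYOU1 is a bound. On the right, the genes past the lower dotted line lie mainly in the BiP and the HSP90 groups, where 5 of 7 and 3 of 5 were more than 2-fold lower. On the left no gene is past a dotted line.

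**Figure D3:**
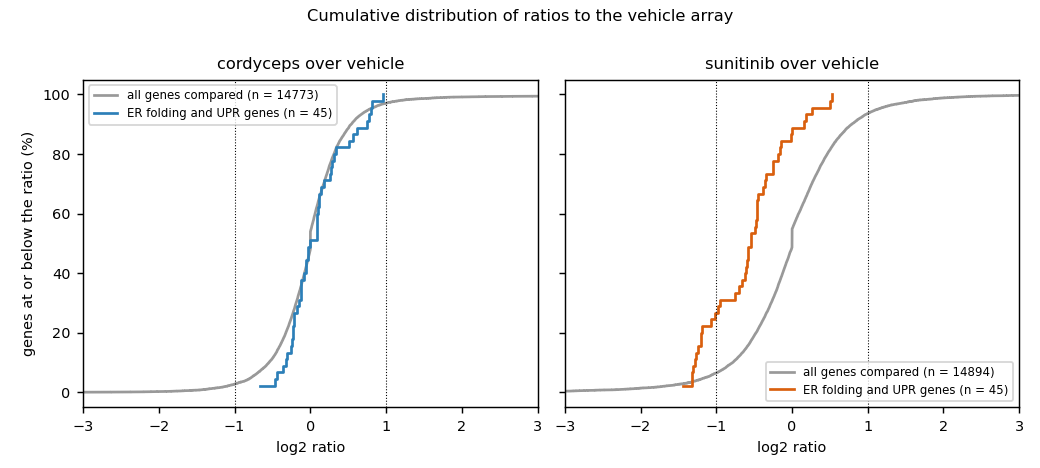
Share of genes at or below each log2 ratio to vehicle, for the 45 genes (coloured) and all genes compared (grey). With cordyceps the curves run together, and with sunitinib the coloured curve lies to the left of the grey one, with medians of −0.55 and 0.00. The step of the grey curve at 0 is made of genes whose dimmer side gave no ratio.

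The BiP system comprises BiP, its J-domain partners, its nucleotide exchange factors and SDF2L1. All 7 genes were below vehicle on the sunitinib array, 5 of them by more than 2-fold, with a median log2 ratio of −1.20. HSPA5 had a level of 4.16 on the vehicle array, 5.13 on the cordyceps array and 2.72 on the sunitinib array. The 3 arrays were thus far apart for BiP, with cordyceps highest and sunitinib lowest. The log2 ratio to vehicle was 0.96 with cordyceps, 1.95-fold and the highest of all 45 genes, and −1.44 with sunitinib, 2.71-fold lower and the lowest of all 45. SDF2L1, a BiP cofactor that forms complexes with the J-domain partners, had levels of 4.56, 5.37 and 3.61 in the same order of arrays. It was the second gene of the list with cordyceps, at 0.81, and just inside 2-fold with sunitinib, at −0.96. SIL1, an exchange factor of BiP, had levels of 2.71, 2.65 and 1.39, and DNAJC3, a J-domain partner that is also called p58IPK, had 2.52, 2.79 and 1.21. Both stood near vehicle with cordyceps, at −0.06 and 0.27, and were 2.50-fold and 2.48-fold lower with sunitinib. DNAJB11, a soluble J-domain partner, followed with levels of 4.42, 4.52 and 3.23 and a ratio of −1.20 with sunitinib. HYOU1, the large exchange factor also known as GRP170, was dim, with signals of 78.3 and 82.9 on the vehicle and cordyceps arrays. It was not well above background on the sunitinib array, so its value there, 2.03-fold lower, is a bound. The bound is no firm minimum, since its technical limit was 0.73 and the log2 ratio was −0.21 with normexp background correction. DNAJB9, a J-domain partner and a well-known target of the IRE1α arm, was the exception, with levels of 3.23, 3.37 and 3.03. Its ratios of 0.14 and −0.19 were both inside the technical limit.

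In the group of the HSP90 paralogue GRP94, the lectin chaperones and the prolyl isomerases, 4 of 5 genes were lower past the technical limit with sunitinib, and 1, CALR, with cordyceps. HSP90B1, which encodes GRP94, had levels of 8.13, 8.01 and 6.81 on the vehicle, cordyceps and sunitinib arrays. Only the sunitinib array stood apart, at a log2 ratio of −1.32, and another probe of the gene gave −1.45. FKBP14, a prolyl isomerase that acts on collagen, had levels of 3.71, 3.49 and 2.44, and PPIB, cyclophilin B, had 4.76, 4.53 and 3.52. With sunitinib both were lower by more than 2-fold, at −1.28 and −1.24, and with cordyceps both were within the technical limit, at −0.22 and −0.23. CALR, calreticulin, a lectin chaperone that binds calcium, had levels of 9.03, 8.59 and 8.06. It was lower than vehicle past the technical limit on both treated arrays, at −0.44 with cordyceps and −0.97 with sunitinib. CANX, calnexin, the membrane-bound counterpart of calreticulin, had levels of 3.50, 3.75 and 3.25 and lay within the technical limit on both. The median of the group was −1.24 with sunitinib and −0.22 with cordyceps.

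Among genes of disulfide formation, the isomerases PDIA4 and PDIA3 were more than 2-fold lower with sunitinib and the rest less so. PDIA4, also called ERp72, had levels of 4.57, 4.39 and 3.30 on the 3 arrays. PDIA3, ERp57, the isomerase that works with calnexin and calreticulin, had 4.99, 4.75 and 3.92. Both were near vehicle with cordyceps, at −0.18 and −0.24, and the sunitinib array was the low one, at −1.27 and −1.07. P4HB, protein disulfide isomerase itself, had levels of 8.73, 8.25 and 8.13 and was lower past the technical limit on both treated arrays, at −0.47 and −0.60, and its other probe gave −0.74 and −0.67. DNAJC10, a reductase for misfolded chains, was the highest of the group with cordyceps, at 0.28, and stood at −0.65 with sunitinib. TXNDC5 had the smallest ratio of the group with sunitinib, −0.45. ERO1B, an oxidase that recharges the isomerases, was well above background on the vehicle array only, where its signal was 30.3, and no ratio is given.

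MANF and CRELD2, secreted proteins induced by ER stress, stood on opposite sides of vehicle with cordyceps. MANF, which binds BiP, had levels of 5.47, 6.21 and 4.86, with the cordyceps array highest and the sunitinib array lowest, and its ratios were 0.75 and −0.61. CRELD2 had levels of 3.41, 2.75 and 2.83, so that both treated arrays lay below vehicle by a like amount. Its ratio of −0.66 with cordyceps was the lowest of all 45 genes, and that with sunitinib was −0.58. All 4 ratios were past the technical limit.

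None of the 9 ERAD genes was more than 2-fold from vehicle on either array. With sunitinib 4 were lower past the technical limit, namely DERL2, HERPUD1, EDEM2 and EDEM1, and 2 were higher, and the median was −0.25. DERL2, a subunit of the retrotranslocation machinery, had levels of 3.22, 2.86 and 2.46 and was the lowest of the group on both treated arrays, at −0.36 with cordyceps and −0.76 with sunitinib. HERPUD1, which helps assemble the HRD1 ligase and carries an ERSE-II in its promoter, had 6.90, 6.86 and 6.27, with ratios of −0.03 and −0.62. EDEM1, a mannose-trimming lectin-like enzyme that marks glycoproteins for degradation, had 0.75, 1.26 and 0.29. It was thus higher with cordyceps, by 0.51, and lower with sunitinib, at −0.46. SEL1L, the partner of the HRD1 ligase, was the highest of the group with cordyceps, at 0.56, and stood at 0.27 with sunitinib, where another probe gave −0.14. OS9, a lectin that delivers glycoproteins to SEL1L, and DERL3 were the 2 genes of the whole list that were higher with sunitinib past the technical limit. OS9 had levels of 5.25, 5.03 and 5.78, and for DERL3 the sunitinib array, at 4.42, was also the highest. Their ratios of 0.53 and 0.50 fell inside the limit with median scaling, at 0.20 and 0.17, and were −0.55 and −0.57 in the table without scaling between arrays.

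Of the sensors and transcription factors, XBP1 was the gene that shifted most. XBP1 had levels of 5.55, 5.42 and 4.35, and on the sunitinib array its 10 spots ranged from 4.29 to 4.40, below the range of 5.52 to 5.60 on the vehicle array. The ratio was −0.13 with cordyceps and −1.20 with sunitinib, 2.30-fold lower. The probe counts XBP1 RNA whether or not it has been spliced by IRE1α. ATF6, the sensor cleaved in the Golgi, had levels of 3.02, 2.87 and 2.55 and a ratio of −0.47 with sunitinib, just past the technical limit. CREB3L2, a membrane-bound factor of the same type that acts in secretory cells, had 5.49, 5.58 and 5.03. Its ratio was −0.46 with sunitinib and 0.09 with cordyceps, but its other probe gave 0.03 and −0.14. The brighter probe lay in the bright area of the cordyceps array, which touches only the ratio with cordyceps. ERN1, which encodes IRE1α, was well above background on none of the 3 arrays.

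The 12 genes of translocation and signal peptide removal were a mixed group. With sunitinib 5 were lower past the technical limit, only SSR3 by more than 2-fold, and the median was −0.37. SSR3, the γ subunit of the translocon-associated protein complex, had levels of 1.87, 2.68 and 0.68, with cordyceps highest and sunitinib lowest, and its ratios were 0.81 and −1.19. The other subunits of that complex had smaller ratios. SSR1 stood at 0.10 and −0.47, but another of its probes gave 0.67 with sunitinib, and the mean of its probes, −0.17, was inside the limit. SSR4 stood at −0.08 and −0.39, and SSR2 at −0.31, the lowest of the group with cordyceps, and −0.01 with sunitinib. SPCS3, a glycoprotein subunit of signal peptidase, had levels of 3.57, 4.34 and 3.08 and ratios of 0.77 and −0.49. SEC61B, a small subunit of the channel, had 6.46, 6.55 and 5.77, with a ratio of −0.69 with sunitinib, the lowest after SSR3. SEC63, which recruits BiP to the channel, was 0.61 above vehicle with cordyceps and the highest of the group with sunitinib, at 0.18. Its dimmer probe gave −0.63 and −0.44, so the 2 probes of SEC63 differed in direction.

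Set side by side, the 2 treated arrays differed most for HSPA5, SSR3 and SDF2L1. HSPA5, SDF2L1, MANF, EDEM1, SPCS3 and SSR3 were above vehicle past the technical limit with cordyceps and below it past the limit with sunitinib, and CALR, P4HB and CRELD2 were below it with both. Among the 12 genes past 2-fold with sunitinib, 10 were within the technical limit with cordyceps, the others being HSPA5 and SSR3. The direct ratio of the cordyceps over the sunitinib array, added after the values were seen, does not use the vehicle spots. In it 14 of 44 genes exceeded 2-fold upwards and 0 downwards, beside 9.43% and 7.56% of 13875 genes. HSPA5 was 5.29-fold higher on the cordyceps than on the sunitinib array (2.40 on the log2 scale), SSR3 3.99-fold and SDF2L1 3.40-fold (1.77). In the BiP system 6 of 7 genes exceeded 2-fold, the exception being DNAJB9 at 0.33. Among the ERAD genes 0 of 9 did, and OS9 stood at −0.74.

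The genes with an ERSE were set beside those without, and the difference was not tested. With sunitinib the 9 genes with an ERSE had a median log2 ratio of −0.58, with 3 of them more than 2-fold lower, and the 31 compared genes with a window but no ERSE had a median of −0.55, with 7 lower. Over all 16 compared genes with an ERSE in their promoter window, these 9 included, the median was −0.21. With cordyceps the medians were −0.05 with and 0.09 without the element. HSPA5 and CRELD2, which each hold 1 exact match to the ERSE, were the highest and the lowest of all 45 genes with cordyceps. Copies of the element with other bases were not searched for. SIL1, DNAJC3, DNAJB11, PPIB, PDIA4 and SSR3 were more than 2-fold lower with sunitinib and hold neither an ERSE nor an ERSE-II in these windows. This says only that these letters are not there.

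**Figure D4:**
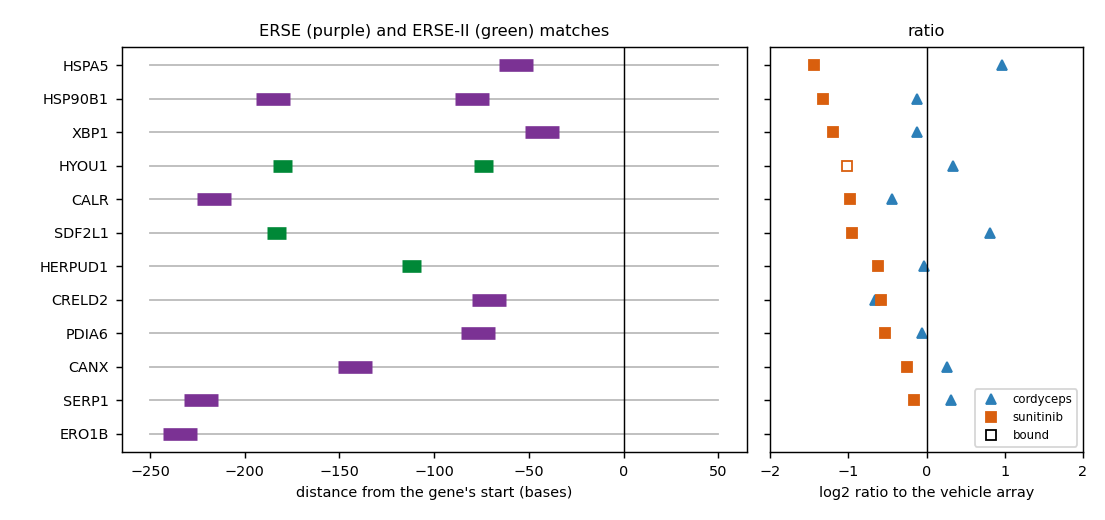
Left, positions of ERSE (purple) and ERSE-II (green) matches in the promoter windows of the 12 genes that hold one, in bases from the start, for the first start site with a match. Right, log2 ratio of the same genes to vehicle with cordyceps (triangles) and sunitinib (squares). The genes are ordered by the sunitinib ratio, from HSPA5 at −1.44 to SERP1 at −0.16, and ERO1B has no ratio.

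The counts with sunitinib were also set beside genes of a like signal. Among genes with a vehicle level between 4 and 6 on the log2 scale, 6 of the 15 listed genes and 6.71% of all genes were more than 2-fold lower. Between 2 and 4 the figures were 3 of 20 and 6.66%, and above 6 they were 1 of 5 and 4.59%. The sunitinib array was the dimmest, so its ratios depend most on the scaling. With scaling to the median of probes, the median of the list was −0.88 and that of all genes −0.31, and with no scaling they were −1.62 and −1.05. Both settings shift the measured ratios by a constant, so by construction they leave the distance between list and all genes nearly as it was, while the number of genes past 2-fold went from 12 to 16 and 39. The distance, −0.55 as reported, was −0.71 with normexp background correction and −0.82 without a filter on dim probes. The sign of the ratio of these 12 genes was the same under every setting that gave a value. HYOU1 was the one whose size was least fixed, at −0.21 with normexp background correction.

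**Figure D5:**
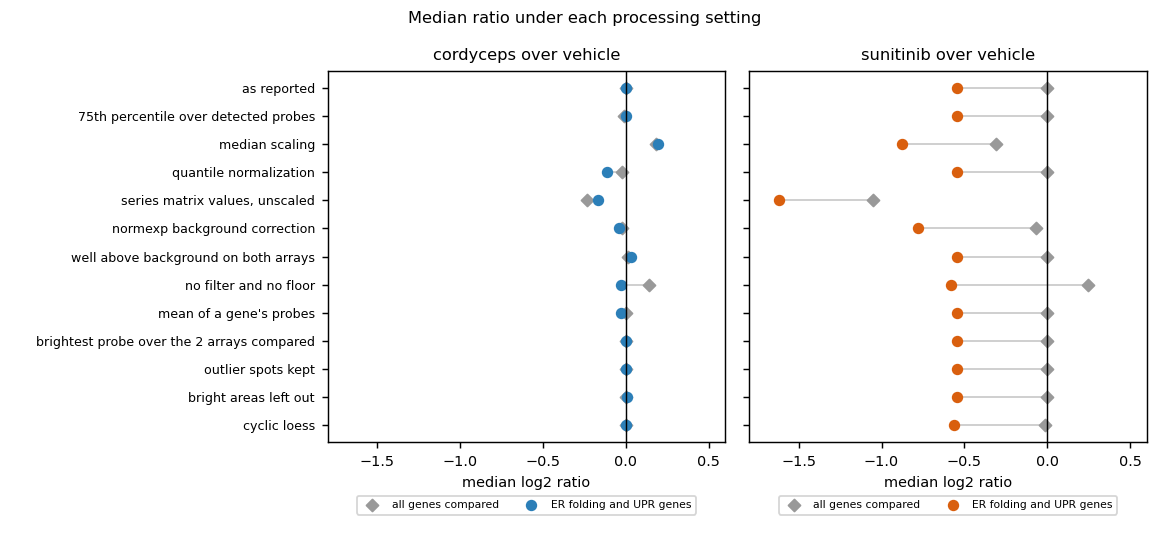
Median log2 ratio to vehicle of the listed genes (circles) and of all genes compared (grey diamonds) under each processing setting, for cordyceps (left) and sunitinib (right). With sunitinib the circle lies left of the diamond in every row, at a distance of −0.55 as reported, −0.71 with normexp and −0.82 without a filter. Median scaling and unscaled values shift both symbols together. With cordyceps the distance is largest without a filter, at −0.17.

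Other genes of the same pathway were taken from lists of genes other than these, except that the PERK list also holds ERO1A, which had no probe. In the PERK arm, whose targets restore translation and amino acid supply, 6 of 9 genes were more than 2-fold lower with sunitinib and 1 with cordyceps, with medians of −1.23 and 0.27. Beside this and the lists below, 6.49% of all genes were more than 2-fold lower and 6.41% higher with sunitinib. With cordyceps 2.74% were lower and 2.93% higher. CHAC1, which degrades glutathione, was lower on both arrays, at −1.09 with cordyceps and −1.91 with sunitinib. TRIB3, ASNS, PPP1R15A and ATF3 were more than 2-fold lower with sunitinib, at −1.35, −1.26, −1.23 and −1.10. With cordyceps the same genes stood at 0.30, 0.67, 0.82 and 0.59. DDIT3 stood at 0.27 with cordyceps and −0.36 with sunitinib, and SESN2 at −0.71 and −0.74. EIF2AK3, which encodes PERK, was not well above background with sunitinib, with a bound of −1.56 on the log2 scale, whereas ATF4, the factor itself, stood at −0.01 and 0.18. The 34 other folding genes compared had a median of −0.37 with sunitinib, with 4 more than 2-fold lower and 1 higher. The 4 were FKBP11, a prolyl isomerase of secretory cells, at −1.73, PDIA5 at −1.43, SERPINH1, the collagen chaperone, at −1.30, and UGGT1, the glucosyltransferase that senses misfolded glycoproteins, at −1.06. TMX4, at 1.30, was the higher one. Its probe lay in the bright area of the cordyceps array only, which does not enter this ratio. With cordyceps 0 of the 34 passed 2-fold, the lowest being FKBP10 at −0.98. Of 23 other ERAD genes 0 were more than 2-fold lower with sunitinib and 1, FAM8A1, was higher, at 1.33, with a median of −0.29. FAM8A1 was dim, with signals of 31.4 on the vehicle and 37.4 on the sunitinib array. The lowest signals above background there were 18.2 and 18.3, and its ratio depends on the scaling. Of 17 other UPR sensors, proteases and factors, MBTPS2, the protease that completes ATF6 cleavage, was lower at −1.05, BCL2L11, a cell death protein, was higher at 1.08, and the median was 0.06.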

How the data were processed

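The authors deposited, for each of the 3 arrays, the spot table of Agilent Feature Extraction 11.5.1.1, whose processed signal is a linear intensity after background subtraction. They also deposited a series matrix of the same intensity values, not scaled between arrays. The study's methods describe another, 2-colour array, from which only the 2-fold limit was taken. Control spots and outlier spots were left out, repeat spots were averaged per probe, and levels were taken as log2 of the signal over its array's 75th percentile. The probe with the highest mean log2 signal over the 3 arrays stood for a gene. Ratios were taken where at least 1 side was well above background. A dimmer side that was not gave a bound against the lowest signal above background, or the probe's own if higher, with no ratio where this bound was not above 1-fold. Probes were named through RefSeq accessions.

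Genes named are those past 2-fold, the highest and lowest of each role group, 11 genes set by name and those above background on no array. Those past the technical limit were added after their values were seen. The genes and lists were chosen with earlier results of these data known. Planned protein features were not analysed here. Alternatives changed scaling, background correction, filter, probe choice, outliers, bright areas (median over 7 by 7 spots more than 1.0 above the other arrays) and fold limit. All steps ran in R 4.3.3 with limma 3.58.1 and in Python 3.11.15 with pandas 2.3.3, scipy 1.17.1 and numpy 2.4.6. The scaling and the ratios were tested on noisy copies of the vehicle array with known folds put into bright probes. That test did not cover the promoter search, the bright areas or the alternative normalizations.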

Additional observations from a re-analysis of the deposited data

How the results depend on the processing

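No paired analysis was possible because each condition had 1 array, and no replicate could be left out. With cordyceps the number of listed genes more than 2-fold higher went from 0 to 3 with median scaling (HSPA5, SDF2L1 and SSR3), to 1 with the bright areas left out (HSPA5, at 1.00) and to 6 with a 1.5-fold limit, and the number lower to 1 with that limit. With sunitinib the number lower went from 12 to 39 in the unscaled series matrix, 20 with a 1.5-fold limit and 0 with a 3-fold limit. It was 16 with median scaling, 17 with normexp and 14 with cyclic loess, which was chosen after the data were seen, and between 11 and 13 under the other scalings, filters, probe choices and spot sets. The median with sunitinib went from −0.55 to −0.88 with median scaling, −1.62 unscaled and −0.78 with normexp. The cause of the normexp value was not tested. Of all genes past 2-fold, the share that was higher depended on the setting: with cordyceps 51.7% as reported, 76.8% with median scaling, 24.2% unscaled, 62.6% without a filter and 63.7% with cyclic loess, and with sunitinib 49.7% as reported, 21.2%, 1.92%, 80.6% without a filter and 27.6% with normexp. These scalings moved the median of all genes by 0.18 and −0.24 with cordyceps and by −0.31 and −1.05 with sunitinib. Dim probes limit HYOU1, ERO1B and ERN1, whereas the lack of replicate arrays limits every value.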

Other observations

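Genes that act before and after folding were also read on the arrays, from lists outside the genes described above. Of 26 genes of COPII and COPI coats, cargo receptors and KDEL receptors, which carry folded proteins out of the ER and return escaped chaperones, 13 were lower past the technical limit with sunitinib and 0 higher (50% and 0%, beside 20.3% and 20.7% of all genes), with a median log2 ratio of −0.38. Only KDELR2, a receptor for the retrieval signal of BiP and GRP94, was more than 2-fold lower, at −1.06. KDELR3 stood at −0.85 and KDELR1 at −0.35, and LMAN1, a lectin that exports glycoproteins, at −0.97. With cordyceps 0 of the 26 passed 2-fold in either direction, and their median was 0.11.

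Of 12 oligosaccharyltransferase genes, which attach glycans to entering chains, 7 were lower past the technical limit with sunitinib (58.3%), with a median of −0.43 and RPN1 lowest at −0.93. MAGT1, the magnesium-linked subunit, had a log2 ratio of 4.22 with cordyceps, but its probe lay in the bright area of that array. A last list held genes of the signal recognition particle, other translocon subunits and signal peptidase. It also held genes of other insertion routes (EMC and GET genes, CAMLG and SGTA). Of its 27 compared genes, 6 were lower and 3 higher past the technical limit with sunitinib (22.2% and 11.1%), with a median of −0.06. For this mixed list as a whole, the lower share was close to that of all genes. SRPRB, a subunit of the receptor for the particle, was the 1 gene more than 2-fold lower, at −1.02, and SEC62 the 1 gene higher, with a bound of 2.59.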
